A study of Mus musculus with 48 samples.

Results

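Of the 357 genes in the table whose symbol is Zfp followed by a number, 221 had a mean expression of at least 8 over all 48 samples, and these 221 of 24444 genes are described here. They were chosen by that mean, so their level is not a finding. The 136 other numbered Zfp genes lay under 8. Zfp839 (8.01), Zfp772 (8.03) and Zfp446 (8.04) lay just above that mean, and Zfp658 (7.99), Zfp689 (7.98) and Zfp560 (7.98) just below it. Expression is given as variance-stabilizing transformation (VST) values, which are on a log2 scale with a floor at 2.1433 for genes without reads. Far above the floor, a difference of 1 stands for about 2 times the amount of RNA.

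RNA-seq was performed on the cerebral cortex of male mice on a C57BL/6J background, collected from embryos of day 14.5 (E14.5) and from mice aged 1, 6 or 12 months, with 6 animals of each genotype per age, each sample being the cortex of 1 hemisphere of a mouse. Chd8 V986*/+ mice carry 1 allele of the chromatin remodeler Chd8 with stop codons placed by CRISPR/Cas9 at V986 and E987. The line descends from 1 founder male that was backcrossed to C57BL/6J, the WT mice were littermates, and the allele is carried in all tissues from conception, with no agent given to any group.

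Zfp genes encode zinc finger proteins, most of which hold tandem C2H2 fingers, short loops in which a pair of cysteines and a pair of histidines grip a zinc ion and an alpha helix reads a few bases of DNA. Many also carry a KRAB box, which recruits Trim28 (KAP1) and through it the histone methyltransferase Setdb1 and HP1 proteins, so that the bound site is packed as silent chromatin. Such KRAB zinc finger genes have multiplied by local duplication, sit in clusters on the chromosomes, and are best known for silencing transposable elements and for protecting methylation at imprinted loci. Others, without a KRAB box, act as developmental transcription factors or work on RNA and protein turnover.

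The classical finger is shown for 3 of the genes, as DNA of the mm9 reference (NCBIM37), with the codons of the zinc-binding cysteines and histidines in capitals. Zfp866 was the one Zfp gene that differed between genotypes by the test used, and Zfp41 and Zfp57 had the largest decreases with age. The Zfp866 finger lies at chr8:72290301-72290384 on the minus strand, the Zfp57 finger at chr17:37146618-37146701 on the plus strand and the Zfp41 finger at chr15:75448889-75448972 on the plus strand, all in coding exons.
Zfp866: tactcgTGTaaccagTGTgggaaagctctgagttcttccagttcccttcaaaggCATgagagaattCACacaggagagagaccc
Zfp57: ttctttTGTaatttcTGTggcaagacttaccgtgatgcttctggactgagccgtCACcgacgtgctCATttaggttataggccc
Zfp41: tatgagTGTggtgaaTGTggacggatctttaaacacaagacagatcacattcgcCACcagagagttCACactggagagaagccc
The 3 sequences share the spacing of the capitals, by which they were picked. They differ in the bases between the capitals, which encode the helix that contacts DNA.

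The gene annotation of mm9 (GENCODE) matched 220 of the 221 genes, 7 of them by an older name, and gave a position for 217. Chromosome 7 held 53 of them, chromosome 17 held 26 and chromosome 8 held 19. At least 1 classical C2H2 finger was found in 213 translated coding sequences, with a median of 10 fingers and up to 41, and 7 had no match to that spacing, among them Zfp365, Zfp503, Zfp703 and Zfp839. A KRAB box was found in 104, 80 others held 5 or more fingers without one, and 36 held fewer than 5 fingers without one. There were 16 clusters of 3 or more of the genes with gaps of at most 200000 bases, which held 70 genes. Reads of near-identical Zfp genes can be assigned to the wrong copy. Of the 221 genes, 142 shared no window of 50 bases, the read length, with another annotated protein-coding gene. Transcripts of other kinds, such as those of pseudogenes, were not searched. Over 10% of their windows were shared by 9 genes, among them Zfp971 (49.8%), Zfp970 (44.8%) and Zfp932 (38.2%), whose values are therefore uncertain.

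Chd8 itself had its lowest, median and highest VST expression at 12.33, 12.60 and 12.66 in WT embryos and at 11.60, 11.98 and 12.03 in Chd8 V986*/+ embryos. From the youngest to the oldest age its log2 fold-change was −0.63, −0.67, −0.64 and −0.54 (limma adjp = 0.026, 3.0e-06, 1.1e-07 and 0.0026), and the genotypes did not overlap at any age. All 10 marker genes of the cortex were above the floor in every group. The mean of 22 markers of midbrain, hindbrain and spinal cord had a lowest, median and highest value of 3.03, 4.58 and 7.02 in WT embryos and of 3.17, 3.61 and 4.47 in Chd8 V986*/+ embryos, and lay between 2.58 and 3.13 in all mice after birth.

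The largest change of the Zfp genes was between the embryonic and the 1-month cortex. In each mouse, the mean over the 221 genes had a lowest, median and highest value of 9.86, 9.90 and 9.92 in WT embryos and of 9.24, 9.26 and 9.28 in WT mice of 1 month. In Chd8 V986*/+ mice these values were 9.84, 9.90 and 9.94 at E14.5 and 9.21, 9.24 and 9.27 at 1 month. Every embryo thus lay above every 1-month mouse in both genotypes, while the mean over all 10041 genes of at least 8 moved the other way, from 10.05 to 10.13 in embryos to 10.31 to 10.34 at 1 month. Of these 10041 genes 45.6% were called lower and 45.5% higher in WT, so most of them did not rise with the mean. Both sets were chosen by a mean over all 48 samples, most of them from after birth. The mean over the 104 KRAB genes was 9.53 to 9.62 in the 12 embryos and 8.83 to 8.93 in the 12 mice of 1 month. Fewer cells of a type and less RNA per cell cannot be told apart in such bulk samples.

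**Figure D1:**
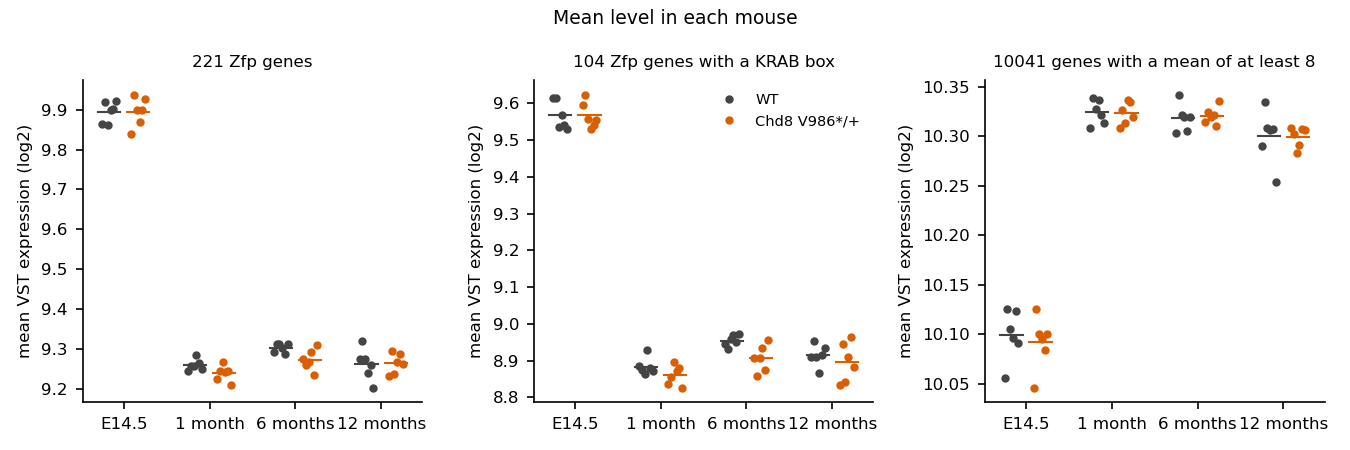
Mean VST expression (log2) in each of the 48 mice by age, for the 221 Zfp genes, the 104 of them with a KRAB box, and the 10041 genes with a mean of at least 8. Each point is a mouse, gray for WT and orange for Chd8 V986*/+, and the line is the mean of 6 mice. The Zfp genes sit between 9.84 and 9.94 at E14.5 and between 9.20 and 9.32 at every later age, whereas the panel of all genes of at least 8 rises.

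In WT cortex, 171 of the 221 Zfp genes were lower and 25 higher at 1 month than at E14.5 by limma (adjp below 0.1), and 25 were not called. Among all 17285 genes tested, 42.3% were called lower and 43.4% higher, and among the genes with a mean of at least 8, 45.6% were lower and 45.5% higher, against 77.4% and 11.3% of the Zfp genes. The median log2 difference was −0.67 over the Zfp genes, 0.02 over all genes tested and −0.01 over all genes of at least 8. With a log2 difference of at least 1 also required, 69 Zfp genes were lower and 5 higher (31.2% and 2.26%), where all genes tested gave 17.7% and 22.7%. The 6 embryos and the 6 mice of 1 month did not overlap in 151 of the genes that were lower and 19 that were higher, a share of 76.9%, beside 68.5% of all genes tested and 78.7% of all genes of at least 8. The genes that had a mean of at least 8 at both ages numbered 208, of which 163 were lower and 21 higher and the median was −0.67. With quantile normalization between samples, which shifts the median over all genes from 0.02 to −0.11, 174 Zfp genes were lower and 28 higher.

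**Figure D2:**
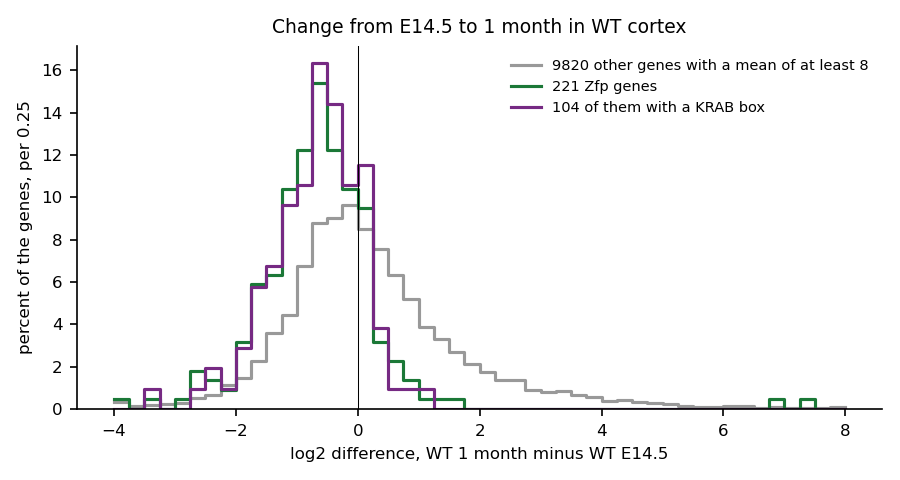
Percent of genes in bins of 0.25 of the log2 difference between WT mice of 1 month and WT embryos, for the 221 Zfp genes (green), the 104 of them with a KRAB box (purple) and the 9820 other genes with a mean of at least 8 (gray). Values beyond the axis ends are counted in the outermost bins. The Zfp curves peak at a decrease, with a median of −0.67, and have few genes to the right, where the gray curve has a long tail.

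Zfp57, a KRAB protein that maintains DNA methylation at imprinting control regions, fell by 3.49 on the log2 scale. Its lowest, median and highest values were 11.15, 11.41 and 11.67 in WT embryos and 7.56, 7.96 and 8.07 at 1 month. No mouse of 1 month came near an embryo. Zfp41, a protein with 4 fingers and no KRAB box, had the largest decrease of the 221 genes, a log2 difference of −3.90, from 11.58, 11.79 and 11.95 to 7.76, 7.90 and 7.96. Its level at 1 month was 6.68% of that in embryos and the groups did not overlap. Both are among 8 genes, with Zfp503, Zfp11, Zfp101, Zfp446, Zfp709 and Zfp712, whose mean was under 8 after birth and which were therefore chosen through their level in embryos. Their decrease is a description and carries no test.

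Several of the other large decreases were in transcription factors of neural development with long finger arrays. Zfp462, which has 34 fingers and whose human counterpart is mutated in a neurodevelopmental syndrome, fell by 2.72 (standard error 0.13, limma adjp = 7.5e-12), from 12.77, 13.48 and 13.68 in WT embryos to 10.44, 10.66 and 10.89. Zfp521, a driver of neural differentiation, fell from 11.15, 11.50 and 11.72 to 8.31, 8.42 and 8.95, a log2 difference of −2.99. Its paralog Zfp423, a partner of Smad and Ebf factors that is needed for the cerebellum, fell from 10.62, 11.35 and 11.62 to 8.71, 8.90 and 9.19, a difference of −2.34. In all 3 the ages did not overlap. Replicate 1 of each genotype was the lowest E14.5 sample for Zfp462, at 12.77 and 12.57, and for Zfp423, at 10.62 and 10.61, and the comparisons without it are among those given in the closing section. Zfp503 (−2.69), Zfp422 (−2.58), the KRAB genes Zfp811 (−2.58), Zfp113 (−2.28) and Zfp606 (−2.28) complete the 10 largest decreases, and in each of them every 1-month WT mouse lay below every WT embryo.

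The largest increases were of a different size from the rest. Zfp831 was near the floor in WT embryos, with a lowest, median and highest value of 2.10, 2.85 and 3.06, and stood at 10.06, 10.13 and 10.32 at 1 month. Its difference of 7.50 on the VST scale is given without a fold, because the scale is not proportional near the floor. Zfp365, also known as DBZ for its binding to the neuronal scaffold protein Disc1, rose from 7.58, 7.64 and 7.92 to 14.51, 14.56 and 14.64, a log2 difference of 6.88. Both are among 5 genes, with Zfp772, Zfp839 and Zfp970, whose mean was under 8 in embryos and which were chosen through their level after birth, so their increase is a description with no test. At 6 and 12 months the WT medians were 14.51 and 14.44 for Zfp365 and 10.22 and 10.16 for Zfp831. The third, Zfp239, was far behind. It rose by 1.68, from 8.15, 8.34 and 8.40 to 9.84, 9.98 and 10.14, followed by Zfp651 (1.5), the KRAB gene Zfp612 (1.11), Zfp970 (1.00), Zfp523 (0.95), Zfp106 (0.78), Zfp950 (0.66) and Zfp839 (0.62). In all 10 the ages did not overlap.

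**Figure D3:**
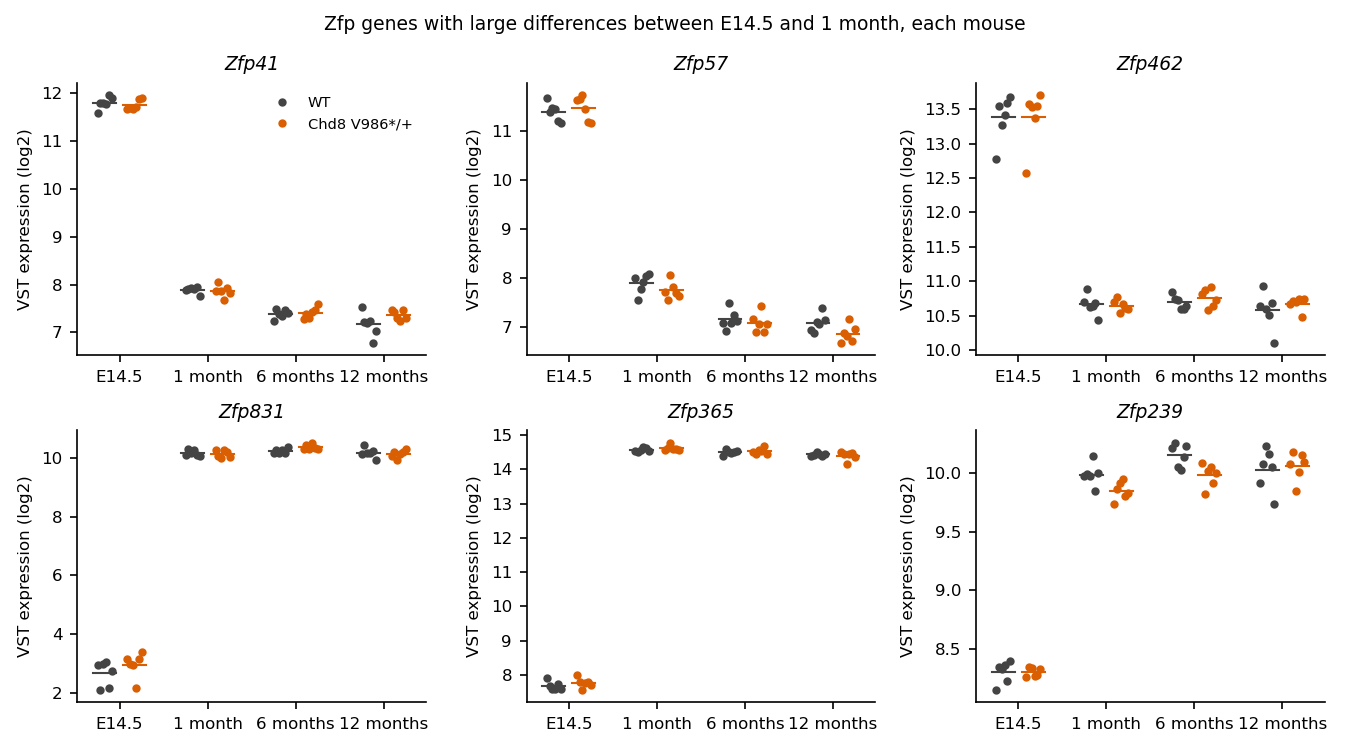
VST expression (log2) of 6 Zfp genes in each mouse by age, gray for WT and orange for Chd8 V986*/+, with a line at the mean of 6 mice. Zfp41, Zfp57 and Zfp462 drop between E14.5 and 1 month, whereas Zfp831 rises from a WT median of 2.85 to 10.13, Zfp365 from 7.64 to 14.56 and Zfp239 from 8.34 to 9.98. WT and mutant points lie together at each age.

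The decrease was seen in each protein class. These counts include genes that were chosen through their level in embryos or after birth. A count without them was made only for the whole list. Of all genes tested, 42.3% were lower and 43.4% higher in WT. Among the 104 KRAB genes, 81 fell and 9 rose by 1 month in WT mice, where the median was −0.63. Of the 80 with 5 or more fingers and no KRAB box, 63 were lower and 9 higher (median −0.70), and of the 36 with fewer fingers 26 were lower and 7 higher (median −0.66). The medians in mutant mice were −0.71, −0.76 and −0.71. Within the chromosomal clusters, 61 of 70 genes were lower and 5 higher, with a median of −0.76, and outside them 110 of 151 were lower and 20 higher, with a median of −0.58. Over the 179 genes that share under 1% of their 50-base windows with another protein-coding gene, 142 were lower and 19 higher.

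Genes of 1 cluster moved by different amounts. On chromosome 17, from 32908181 to 33243148, all 7 of Zfp563, Zfp763, Zfp799, Zfp811, Zfp870, Zfp871 and Zfp952 were lower, between −2.58 and −0.28. On chromosome 9, from 20237416 to 20399638, Zfp26, Zfp266, Zfp426 and Zfp846 were all lower, with a median of −1.34. The cluster with the most genes, 11 on chromosome 7 from 30553571 to 30954746, had 9 lower and 1 higher, and ranged from −1.57 to 0.23. The cluster that holds Zfp866, on chromosome 8 from 72134756 to 72315077, had all 3 of its genes lower, Zfp868 and Zfp869 included. On chromosome 7, from 13390326 to 13569689, Zfp110, Zfp128, Zfp324, Zfp329 and Zfp446 were all lower, with a median of −1.22. Of these, Zfp446 was chosen through its level in embryos, so its decrease carries no test. Both directions were called in 4 of the 16 clusters, and in the one on chromosome 7 from 24866943 to 25086251, with Zfp61, Zfp111, Zfp180 and Zfp235, 2 genes were lower and 2 higher.

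Of the 18 genes listed as developmental regulators, 14 were lower and 1, Zfp365, was higher in WT mice of 1 month, with a median of −0.96. Besides Zfp521, Zfp462 and Zfp423, those that fell included Zfp608 (−2.07), Zfp292 (−1.997), the Sox9 partner Zfp219 (−1.80), and Zfp711 (−1.59), the X-linked gene whose human counterpart is mutated in intellectual disability. Zfp609 (−1.13), Zfp407 (−1.01), Zfp536 (−0.90), Zfp24 (−0.78), Zfp704 (−0.53), Zfp827 (−0.46) and Zfp703 (−0.23) were also called lower. The GC-box binding paralogs Zfp281 (−0.08) and Zfp148 (0.05) were not called, nor was Zfp335 (−0.07), a gene required in neural progenitors. With quantile normalization, which lowers the median over all genes, all 3 were called lower, Zfp281 at −0.14 (limma adjp = 0.014), Zfp148 at −0.13 (limma adjp = 0.059) and Zfp335 at −0.12 (limma adjp = 0.048).

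Of the 10 genes listed for chromatin and silencing, 9 were lower and 0 higher, with a median of −0.72. Zfp445, which acts with Zfp57 at imprinted loci, fell by 0.33, far less than Zfp57. Zfp410, an activator of the remodeler gene Chd4, fell by 1.14, and Zfp516 (−1.40), Zfp532 (−1.30), Zfp687 (−0.72), Zfp961 (−0.72), Zfp644 (−0.38) and Zfp592 (−0.33) were lower as well. Zfp932, which silences endogenous retroviruses in embryonic stem cells, differed by −0.13 (limma adjp = 0.17), a value that is uncertain for the windows it shares with other genes.

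Genes that act on RNA and protein were more mixed. Of 13, 8 were lower and 4 higher, with a median of −0.54. Zfp207 (BuGZ), a spindle assembly protein, fell by 1.09, and Zfp512 (−1.40), Zfp451 (−1.13), Zfp326 (−0.90), Zfp638 (−0.82), Zfp330 (−0.70), Zfp830 (−0.54) and Zfp598 (−0.19), a ubiquitin ligase that senses stalled ribosomes, were lower. The RNA-binding protein Zfp106 rose from 12.21, 12.57 and 12.73 in WT embryos to 13.14, 13.35 and 13.44. The ubiquitin ligase Zfp91 (0.48), the double-stranded RNA binding protein Zfp346 (0.15) and Zfp706 (0.11) were also higher, and Zfp622, a factor of ribosome assembly, differed by 0.03. With quantile normalization Zfp706 was lower instead (−0.11, limma adjp = 0.043), and the difference of Zfp622 was −0.0078. Zfp91 shares 12.6% of its windows, most of them with the neighbouring gene Cntf.

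The partners through which KRAB proteins silence chromatin changed in the same direction. Of 29 listed, 27 were lower and 1 higher in WT mice of 1 month, with a median of −1.27. These are 93.1% and 3.45%, beside 42.3% and 43.4% of all genes tested. Trim28, the corepressor bound by the KRAB box, fell from 13.40, 13.52 and 13.83 to 11.39, 11.43 and 11.52, a log2 difference of −2.12. Setdb1, which it recruits, fell by 1.35. The largest decreases were those of Uhrf1 (−5.59), which guides maintenance DNA methylation, Dnmt3b (−2.36) and Ehmt1 (−2.18). Mphosph8, a HUSH subunit, was higher (0.13, limma adjp = 0.037, but 0.06 and adjp = 0.21 with quantile normalization). Kdm4c, a histone demethylase, fell by 0.20. Chd3 differed by 0.16 (limma adjp = 0.13) and was called lower, at −0.46, with quantile normalization. Markers of cell types shifted as well. The mean of 10 markers of progenitors and dividing cells was 10.8 to 11.6 in the embryos and 6.26 to 6.63 at 1 month, and the mean of 10 markers of mature neurons was 9.11 to 9.70 and then 14.4 to 14.6. All 20 were above the floor in every group. All 8 markers each of oligodendrocytes, astrocytes and microglia were called higher, with means of 6.21 to 6.60, 8.40 to 8.76 and 6.73 to 7.005 in WT embryos and of 13.02 to 13.35, 12.85 to 13.06 and 9.42 to 9.67 in WT mice of 1 month. Of the 10 cortex markers 9 were called lower, and their mean was 11.3 to 12.2 in WT embryos and 10.5 to 10.8 at 1 month. Of 8 endothelial markers 3 were called in each direction. Of the tested markers of midbrain, hindbrain and spinal cord 68.8% were called lower. The mean of that list was 3.03 to 7.02 in WT embryos and 2.63 to 2.93 in WT mice of 1 month. The part of all these markers in the changes of the Zfp genes was not tested.

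The Chd8 V986*/+ mice, which are separate animals, also had more Zfp genes lower than higher at 1 month, and a difference between genotypes in this change was not tested. In them, 168 of the 221 Zfp genes were lower and 29 higher at 1 month than at E14.5, a median of −0.72, where 42.4% of all genes tested were lower and 43.7% higher. Of the WT genes called lower, 97.7% were also called lower in Chd8 V986*/+ mice, as 167 genes, or 99.4% of those called lower there. The 25 genes higher in WT were all higher in the mutants, where they made up 86.2% of those called higher, and 0 genes were called in opposite directions. In the mutants Zfp57 fell by 3.71, Zfp41 fell by 3.88, Zfp831 rose by 7.16 and Zfp365 rose by 6.84. The Pearson correlation of the differences in the 2 genotypes was 0.996 across the 221 genes, which are not independent of each other. Over all genes of at least 8 these shares were 97.1% and 97.1% for lower and 97.8% and 97.5% for higher, and the correlation was 0.997.

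From 1 to 6 months the changes were small, and more Zfp genes rose than fell. In WT mice 44 were higher and 19 lower (19.9% and 8.6%), with a median of 0.04, where 12.3% of all genes tested were called in each direction and where 14.8% of all genes of at least 8 were higher and 15.4% lower. The KRAB genes made up 27 of the genes that rose and 4 of those that fell, those with 5 or more fingers and no KRAB box 12 and 9, and those with fewer fingers 5 and 6. In Chd8 V986*/+ mice 45 Zfp genes were higher and 22 lower (20.4% and 9.95%), and 23 and 7 of these were KRAB genes. Among all genes tested 14% were higher and 12.8% lower, and among all genes of at least 8 these shares were 17.2% and 16.6%. Of the Zfp genes higher in WT, 63.6% were higher in the mutants too, which is 62.2% of the 45, where these shares were 71.8% and 62.0% over all genes of at least 8. Markers of oligodendrocytes and dividing cells moved in the same comparison. Of 8 oligodendrocyte markers 7 were called lower in WT and 8 in mutant mice, and their mean was 13.02 to 13.35 at 1 month and 12.28 to 12.48 at 6 months in WT, and 12.90 to 13.26 and then 11.91 to 12.24 in mutant mice. Of 10 markers of progenitors and dividing cells 6 were called lower in WT, with a mean of 6.26 to 6.63 at 1 month and 5.56 to 6.08 at 6 months. Their part in the changes of the Zfp genes was not tested.

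The largest decreases after 1 month were in genes that had already fallen. Zfp57 went from 7.56, 7.96 and 8.07 to 6.92, 7.11 and 7.49 in WT mice, a log2 difference of −0.74 (standard error 0.10, limma adjp = 0.00013). Zfp41 (−0.50) and Zfp580 (−0.41) followed, and all 3 were called lower in Chd8 V986*/+ mice as well, at −0.66, −0.46 and −0.30. Zfp395 rose from 7.72, 7.89 and 8.04 to 8.04, 8.33 and 8.49, a difference of 0.39 in WT and 0.62 in mutant mice. Zfp971 (0.41) and Zfp970 (0.37) were also among the largest increases, with the reservation that they share many of their windows. In each of these 6 genes the WT ages did not overlap. At 12 months the WT values of Zfp57 were 6.87, 7.08 and 7.39 and those of Zfp41 were 6.78, 7.21 and 7.53, which overlapped with 6 months.

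In 1 cluster all genes rose after having fallen. On chromosome 7, from 28516408 to 28770815, Zfp60, Zfp626, Zfp850 and Zfp974 were lower at 1 month than at E14.5, with a median of −1.17, and each was called higher in WT mice of 6 months than of 1 month, with a median of 0.22. Zfp60 stood at 12.05, 12.09 and 12.18 in WT embryos, at 10.04, 10.14 and 10.21 at 1 month and at 10.26, 10.33 and 10.46 at 6 months. Zfp974 went from 9.04, 9.15 and 9.23 to 7.77, 7.84 and 7.93 and then to 8.04, 8.17 and 8.34. In both genes the 3 ages did not overlap in WT, and the values at 6 months remained well below those of the embryos. In the cluster with Zfp580, on chromosome 7 from 4866819 to 5005324, 2 of 4 genes were called lower again and 0 higher.

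**Figure D4:**
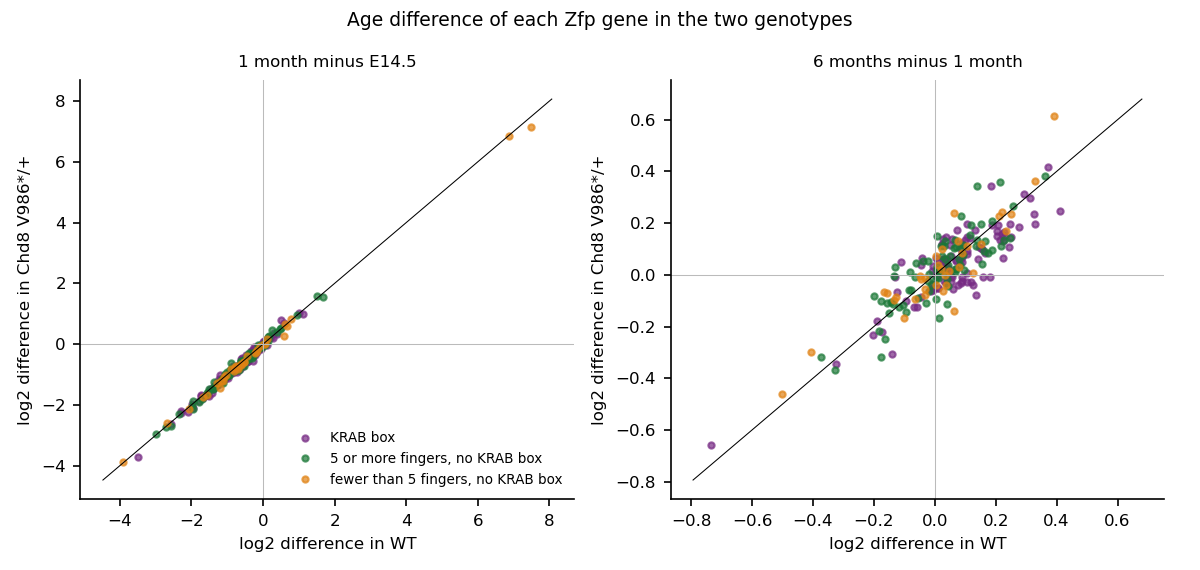
Log2 difference between ages of each Zfp gene in WT mice (horizontal axis) and in Chd8 V986*/+ mice (vertical axis), for 1 month minus E14.5 and for 6 months minus 1 month, with a line of equal values. Purple points have a KRAB box, green points 5 or more fingers without one and orange points fewer than 5, and the gene without a protein match is not drawn. The left panel follows the line with 167 genes called lower in both genotypes, and the right panel, on a much narrower scale, spreads more widely around it.

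From 6 to 12 months limma called 0 Zfp genes in WT mice, where 0.00579% of all genes tested were called. At an unadjusted p below 0.05 there were 2 higher and 13 lower (6.79%, beside 6.75% of all genes tested). In Chd8 V986*/+ mice 3 were higher and 6 lower, where 1.07% and 2.36% of all genes tested were called. Zfp810 rose from 8.12, 8.38 and 8.54 to 8.61, 8.65 and 8.73 (0.31, limma adjp = 0.029), with no overlap between the ages. Zfp638, which binds RNA and DNA in the nucleus, fell from 11.80, 11.86 and 11.87 to 11.63, 11.71 and 11.77 (−0.15, limma adjp = 0.028), again with no overlap. The others were Zfp414 (0.29) and Zfp839 (0.28), which were higher, and Zfp800 (−0.22), Zfp831 (−0.22), Zfp420 (−0.20), Zfp207 (−0.16) and Zfp704 (−0.16), which were lower. Their differences in WT mice lay between −0.31 and 0.06. These 9 were named after their values were seen. The test of the genotype effect at 12 months against 6 months, described below, covers a difference between genotypes in this change. That test called none of the 9, and it called 0.0578% of all genes tested. Without replicate 5 of the mutants at 6 months 15 were called, and 3 to 5 without replicate 2, 3 or 4 of 6 months or replicate 2, 3, 4 or 6 of 12 months. The share of all genes called is not given for these fits.

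Between genotypes, few Zfp genes differed at any age. At E14.5, 0 were called by limma, where 0.00593% of all genes tested, namely Chd8 alone, were called. At an unadjusted p below 0.05 there were 3 higher and 5 lower in Chd8 V986*/+ embryos, or 3.62% of the Zfp genes beside 4.56% of all genes tested. The median difference was 0.00, and 108 of the 221 genes were lower, beside 49.6% of all genes tested. No overlap between genotypes was seen in 1 gene, Zfp882, where 0.261% of all genes tested had none. The lowest p-values were those of Zfp882 (−0.17), Zfp580 (−0.22), Zfp13 (−0.12) and Zfp37 (−0.17), which were lower, and of Zfp14 (0.24), Zfp933 (0.13), Zfp428 (0.11) and Zfp1 (0.13), which were higher (limma adjp = 0.98 each). When the mean of the 22 posterior markers entered as a covariate, limma called 0 Zfp genes at E14.5 as well.

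At 1 month, 1 of the 221 Zfp genes was called, Zfp866, where 0.139% of all genes tested were. It encodes a KRAB protein with 12 fingers and lies on chromosome 8 from 72285225 to 72315077 on the minus strand. Its lowest, median and highest values were 9.53, 9.59 and 9.60 in WT mice and 9.29, 9.33 and 9.44 in Chd8 V986*/+ mice of 1 month. Every mutant mouse lay below every WT mouse, and the log2 fold-change was −0.23 (standard error 0.04, limma adjp = 0.041), or 85.1% of the WT level. The fold-change was −0.19 among replicates 1 to 3 and −0.27 among replicates 4 to 6. The call was lost with the replicate number as a block (limma adjp = 0.17). It was also lost without replicate 4 or 5 of the mutants (limma adjp = 0.146 and 0.123) and without replicate 2 or 6 of WT (limma adjp = 0.101 and 0.114). Zfp866 shares 6.85% of its 50-base windows with other genes.

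At the other ages the genotypes overlapped in Zfp866. In embryos its values were 10.77, 11.05 and 11.11 in WT and 10.64, 10.98 and 11.07 in Chd8 V986*/+ mice, a difference of −0.07. At 6 months they were 9.55, 9.62 and 9.63 against 9.39, 9.47 and 9.58, a difference of −0.12 (limma adjp = 0.51). At 12 months they were 9.43, 9.54 and 9.67 against 9.30, 9.44 and 9.57, a difference of −0.11 (limma adjp = 0.50). The mutant median was below the WT median at all 4 ages.

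Across all Zfp genes at 1 month, 2 were higher and 22 lower at an unadjusted p below 0.05, Zfp866 included, or 10.9%, beside 8.8% of all genes tested. The median difference was −0.02 and 128 of 221 were lower, beside 51.4% of all genes tested. The genotypes did not overlap in Zfp362, Zfp866, Zfp870 and Zfp882, which were lower, and in Zfp706, which was higher, while 0.825% of all genes tested did not overlap. In Zfp870, a KRAB gene of the chromosome 17 cluster, the values were 8.31, 8.43 and 8.65 in WT and 8.07, 8.21 and 8.28 in mutant mice, a difference of −0.24 that was not called. Zfp362 had values of 9.50, 9.56 and 9.62 in WT and 9.25, 9.34 and 9.44 in mutant mice, a difference of −0.21 (limma adjp = 0.11). Zfp580 differed by −0.30 (limma adjp = 0.20) and its groups overlapped. The lowest p-values among genes that were higher were those of Zfp180 (0.16), Zfp35 (0.10), Zfp672 (0.14) and Zfp37 (0.10).

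At 6 months, limma called 0 Zfp genes, where 0.0927% of all genes tested were called, and 3 were higher and 20 lower at an unadjusted p below 0.05 (10.4%, beside 7.59% of all genes tested). More of them lay lower than higher, 146 of 221 (66.1%), with a median of −0.03, whereas 50.4% of all genes tested and 47.9% of all genes of at least 8 were lower. Among the KRAB genes 82 of 104 lay lower (median −0.05), and of the 80 with 5 or more fingers and no KRAB box 45 did (median −0.01). The genes share the same 12 mice, and the shift of the whole list has no test here. Markers of cell types differed in these mice as well. All 8 oligodendrocyte markers were lower in Chd8 V986*/+ mice of 6 months, 6 of them at an unadjusted p below 0.05 and 0 called, with a median of −0.25, and their mean was 12.28 to 12.48 in WT and 11.91 to 12.24 in mutant mice, which did not overlap. All 8 astrocyte markers were higher, with a median of 0.12 and 0 called. Their mean was 12.69 to 12.96 in WT and 12.75 to 13.04 in mutant mice, which overlapped. Among the other cell types, 12.5% of the endothelial, 25.0% of the microglia, 70.0% of the progenitor and 80.0% of the mature neuron markers were lower. Their part in the shift of the Zfp genes was not tested. The mean over the KRAB genes was 8.93, 8.95 and 8.97 in WT mice and 8.86, 8.91 and 8.96 in Chd8 V986*/+ mice, and the groups overlapped. Zfp946 had the lowest p, with values of 8.52, 8.77 and 8.83 in WT and 8.36, 8.50 and 8.59 in mutant mice (−0.25, limma adjp = 0.26), followed by Zfp362 (−0.21), Zfp799 (−0.17) and Zfp870 (−0.27) among those lower. The Zfp870 difference at this age came with overlapping groups, at 8.27, 8.51 and 8.58 in WT and 8.05, 8.18 and 8.54 in mutant mice. Zfp143 (0.18), an activator of small nuclear RNA genes, was the first of those higher. In 0 of the 221 genes were the genotypes apart, where 0.527% of all genes tested were.

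At 12 months, limma again called 0 Zfp genes, where 0.0463% of all genes tested were called, and 10 were higher and 12 lower at an unadjusted p below 0.05 (9.95%, beside 11.6% of all genes tested). The median difference was 0.01, and 103 of 221 were lower, beside 48.6% of all genes tested. Zfp26, a KRAB gene with 22 fingers, had values of 9.43, 9.50 and 9.57 in WT and 9.62, 9.72 and 9.77 in Chd8 V986*/+ mice, a difference of 0.21 (limma adjp = 0.21). Every mutant mouse lay above every WT mouse. Zfp933 had values of 8.95, 9.12 and 9.43 in WT and 8.76, 8.86 and 8.93 in mutant mice, a difference of −0.32 (limma adjp = 0.21), and every mutant mouse lay below every WT mouse. The genotypes were apart, with the mutants lower, in Zfp580 (−0.25) and Zfp850 (−0.21) as well, and 0.868% of all genes tested were apart at this age. Zfp667 (−0.26) and Zfp970 (−0.32) were also among the lowest p-values of genes that were lower, and Zfp467 (0.25), Zfp2 (0.16) and Zfp641 (0.26) of those that were higher. In one fit of all 48 samples, which shares 1 estimate of the spread over ages, 10 Zfp genes were called at 12 months (4.52%, beside 3.0% of all genes tested), among them Zfp933 (limma adjp = 0.0094) and Zfp26 (limma adjp = 0.030).

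**Figure D5:**
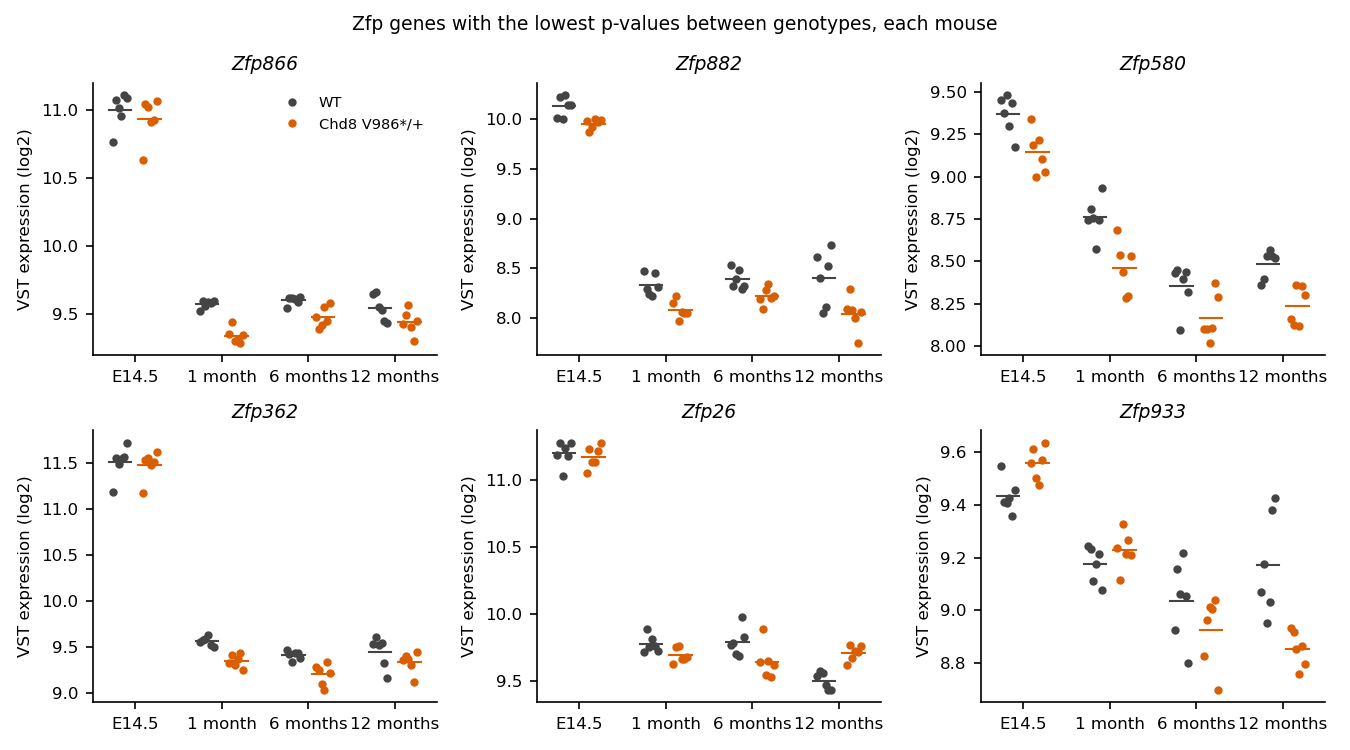
VST expression (log2) of Zfp866, Zfp882, Zfp580, Zfp362, Zfp26 and Zfp933 in each mouse by age, gray for WT and orange for Chd8 V986*/+, with a line at the mean of 6 mice. Each axis has its own range and does not start at 0. The genotypes are apart at 1 month in Zfp866, Zfp882 and Zfp362, and at 12 months in Zfp580, Zfp26 and Zfp933, where Zfp26 is higher in the mutants.

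The difference kept 1 direction at all 4 ages in 36 Zfp genes, 27 lower and 9 higher in Chd8 V986*/+ mice. That is 16.3% of the Zfp genes, beside 17.6% of all genes tested and 18.0% of all genes of at least 8. By direction, 12.2% of the Zfp genes were lower at all 4 ages, beside 8.74% of all genes tested and 8.81% of all genes of at least 8. KRAB genes made up 19 of the 27, which is 18.3% of the KRAB genes, and 2 of the 9. Of the 36, Zfp882 had its groups apart at more than 1 age. This KRAB gene with 14 fingers had values of 10.01, 10.15 and 10.24 in WT and 9.87, 9.98 and 10.002 in mutant embryos, and of 8.22, 8.31 and 8.48 and 7.97, 8.06 and 8.22 at 1 month, where the groups were apart by less than the second decimal. Its log2 fold-changes from the youngest to the oldest age were −0.17, −0.25, −0.17 and −0.36 (limma adjp = 0.98, 0.22, 0.53 and 0.28), and it was called at none of them. Zfp882 lies on chromosome 8 from 74432507 to 74440253 and shares 2.41% of its windows with other genes. Zfp580 was lower by 0.19 to 0.30 at all 4 ages and was not called either in the fits within an age. In one fit of all 48 samples, Zfp580 was called lower at 1 and 12 months and Zfp882 at 12 months.

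Whether the genotype effect itself differed between ages was tested in one fit of all 48 samples. Zfp933 moved from 0.13 in embryos to −0.32 at 12 months, a change of −0.45 (standard error 0.09, limma adjp = 0.058), and was 1 of 221 Zfp genes called, where 0.0635% of all genes tested were. Zfp26 moved from −0.15 at 6 months to 0.21 at 12 months, a change of 0.36 (standard error 0.07, limma adjp = 0.037), where 0.0578% of all genes tested were called. Between 1 and 12 months 0 Zfp genes were called, where 0.00578% of all genes tested were, and 23 had an unadjusted p below 0.05, or 10.4% beside 11.1% of all genes tested. The Zfp933 call was lost when samples were weighted by the spread of their group (limma adjp = 0.195) and when any of 7 samples was omitted, with an adjp of up to 0.140. The Zfp26 call was kept with those weights and was lost without replicate 3 of the mutants at 6 months, replicate 6 of the mutants at 12 months or replicate 5 of WT at 12 months (limma adjp = 0.105, 0.10 and 0.11). Between genotypes limma called 0 of the 29 KRAB partner genes, 0 of the 18 developmental regulators, 0 of the 10 chromatin genes and 0 of the 13 genes of RNA and protein at each age. At an unadjusted p below 0.05 there were at most 4 partner genes and at most 1 gene of each of the other lists at an age.

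The sequence before the transcription start was compared as well. A promoter was available for 182 of the 221 genes in the RefSeq set for GRCm38.p6, a later mouse build than mm9, with 222 starts, each with 250 bases before the start and 50 after it. Only the 250 bases before each start were searched. These windows held a median of 13 CpG dinucleotides for the Zfp genes, 9 for those with a KRAB box and 10 for all 17492 protein-coding genes with a promoter. The Zfp genes that were lower and those that were higher at 1 month in WT both had a median of 13. Counted on both strands, the letters CCGGAAG, those of an Ets factor site, were found in 14.9% of the Zfp starts and in 8.98% of all starts, and CCAAT in 44.6% and 35.4%. In KRAB genes these shares were 19.2% and 52.9%. GGGCGG, the GC box, was found in 43.2% of the Zfp starts and 42.6% of all starts, and CACGTG in 5.41% and 6.63%. The shares are descriptions of these windows and were not tested, and AAGATGGC and TTTCCCGC each occurred in under 5% of the Zfp starts. Unlike the Zfp genes, the genes behind all starts were not limited to a mean of at least 8.

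The 250 bases before the start are shown for 3 genes, with CpG dinucleotides in capitals, as examples of a gene that fell with age (Zfp422), a gene that rose (Zfp365) and the gene that differed between genotypes (Zfp866). All are on the minus strand of GRCm38.p6, Zfp422 at chr6:116628702-116628951, Zfp365 at chr10:67912663-67912912 and Zfp866 at chr8:69774912-69775161.
Zfp422: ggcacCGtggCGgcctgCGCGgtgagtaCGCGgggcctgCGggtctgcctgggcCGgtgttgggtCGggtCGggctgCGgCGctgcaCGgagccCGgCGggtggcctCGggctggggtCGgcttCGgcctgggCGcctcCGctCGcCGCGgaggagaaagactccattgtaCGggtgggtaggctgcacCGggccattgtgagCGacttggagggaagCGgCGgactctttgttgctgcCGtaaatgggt
Zfp365: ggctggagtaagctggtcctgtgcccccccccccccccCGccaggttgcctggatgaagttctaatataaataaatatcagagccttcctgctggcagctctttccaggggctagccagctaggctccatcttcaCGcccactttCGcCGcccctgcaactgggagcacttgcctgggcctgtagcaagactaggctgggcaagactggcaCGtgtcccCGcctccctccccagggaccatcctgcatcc
Zfp866: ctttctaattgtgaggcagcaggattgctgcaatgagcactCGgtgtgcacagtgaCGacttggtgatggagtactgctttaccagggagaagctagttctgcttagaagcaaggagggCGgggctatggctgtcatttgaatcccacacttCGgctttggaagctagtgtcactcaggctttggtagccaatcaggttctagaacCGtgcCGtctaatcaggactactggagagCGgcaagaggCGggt
There are 29 CpG dinucleotides in the Zfp422 sequence, 6 in that of Zfp365 and 8 in that of Zfp866. The same window held 13 in Zfp503, which was also lower at 1 month, and 38 in Zfp651, which was higher. Beside them, Zfp422 fell from 11.82, 11.93 and 12.11 in WT embryos to 9.27, 9.35 and 9.42 at 1 month, a difference of −2.58 with no overlap between the ages. The deposited values do not include methylation or binding at these sites.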

How the data were processed

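RNA-seq of 48 mouse cortices was aligned by the authors to mm9 (STAR 2.5.2b), quantified with Salmon 0.11.3 and processed with DESeq2 (listed as DESeq 1.22.2), per the submitters' processing notes and the study's methods. The values deposited by the authors are log2 VST values for 24444 genes, in which replicates 1 to 3 and 4 to 6 of the series had the same gene means (largest difference 3.38e-14). A difference between these sets had thus been removed, which left some values slightly under the floor. The methods name stranded KAPA polyA libraries and the labels a TruSeq kit. The read depth that the study lists for each sample served only as a covariate, and without counts per gene precision was taken from the spread between 6 mice.

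Groups came from the labels. Comparisons were fitted with limma 3.58.1 (R 4.3.3) with an intensity trend, over genes with a mean at least 0.5 above the floor, which all 221 Zfp genes passed in each comparison. Benjamini-Hochberg adjusted p-values (adjp) cover all genes tested, and genes below 0.1 were called. Genotypes were compared within age, neighbouring ages within genotype, and genotype effects between ages in one fit of all 48 samples. The labels do not say whether the mice came from separate litters, so p-values measure the spread between these mice. The fits were tested on simulated data.

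The genes and the lists were chosen with earlier results of these data known. Genes named are those called between genotypes, the 4 lowest p-values in each direction, the 10 largest called decreases and increases from E14.5 to 1 month in WT and 3 of each from 1 to 6 months, genes of one direction at 4 ages with groups apart at 2 or more, members of the role lists, the 3 highest and 3 lowest differences among KRAB partners, and those next to the mean of 8. Other genes were named after their values were seen. Fingers were found as C-X(2-4)-C-X(12)-H-X(3-5)-H/C in translated GENCODE coding sequences, and KRAB boxes by a profile of 40 residues built from 91 proteins, at a score above 0 bits, under which 8 genes scored higher than any reversed protein. Python 3.11.15, numpy 2.4.6, pandas 2.3.3, biopython 1.88 and matplotlib 3.10.9 were used. Alternatives were other filters, no intensity trend, robust variance, one fit of all 48 samples, a replicate block, a term for the sets of replicates, quantile normalization, centring on the median, read depth or posterior markers as covariates, adjp below 0.05, other means for choosing the genes, leaving out each sample and, added after seeing the data, weights for the spread of each group.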

Additional observations from a re-analysis of the deposited data

Results flagged for a closer look

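In 6 of 114 groups of 6 mice examined for the named genes, 1 mouse stood apart from the other 5 by more than Dixon's 95% limit, where chance gives about 1 in 20 groups. Zfp946 in WT replicate 2 of 6 months was lowest of its group at 8.52, with the next mouse at 8.76. Zfp870 was lowest in the same mouse, at 8.27 against 8.50. Zfp580 was lowest in WT replicate 3 of 6 months, at 8.09 against 8.32. Zfp521 was highest in WT replicate 5 of 1 month, at 8.95 against 8.47. Zfp106 was lowest in WT embryo replicate 1, at 12.2 against 12.5. Zfp26 was highest in mutant replicate 2 of 6 months, at 9.89 against 9.64. Without WT replicate 2, the difference of Zfp946 at 6 months was −0.30 and passed the threshold.

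By the interaction test, 2 Zfp genes were called for a genotype effect that differed between ages, where 0.0635% and 0.0578% of all genes tested were called. The Zfp933 call was lost with group weights and when any of 7 samples was omitted, and the Zfp26 call when any of 3 was. For Zfp933 the effect at 12 months minus that in embryos was −0.45 (limma adjp = 0.058), and for Zfp26 the effect at 12 months minus that at 6 months was 0.36 (limma adjp = 0.037).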

How the results depend on the processing

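The decrease from E14.5 to 1 month kept its size under every alternative tried, with a median between −0.69 and −0.65 in WT and between −0.73 and −0.70 in mutant mice. Counts changed with the genes admitted: with a mean of at least 9 required, 117 genes were called in WT (48 at a difference of 1 or more), 116 in mutants (49), 38 in WT from 1 to 6 months and 3 in mutants from 6 to 12 months. The last count was 5 with no filter or with quantile normalization, 4 with no intensity trend or at an adjp below 0.05, and 2 in one fit of all samples. In that fit, calls between genotypes were 1 at E14.5 (Zfp14), 2 at 1 month (Zfp580 and Zfp866), 1 at 6 months (Zfp946) and 10 at 12 months (3 higher, 7 lower). The shares of all genes tested were 0.537%, 0.214%, 0.0924% and 3.0%. From 6 to 12 months in WT that fit called 1, beside 0.0404% of all genes tested. No filter gave 2 calls at 1 month. The change of genotype effect gave 0 calls against E14.5 with group weights or at an adjp below 0.05, 2 against 1 month with group weights, and 2 against 6 months with genes of at least 7. Quantile normalization reversed Zfp148 (−0.13), Zfp622 (−0.0078), Zfp706 (−0.11) and Chd3 (−0.46). The causes were not tested, except that a higher mean admits fewer genes.

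With the replicate number as a block, 0 genes were called at 1 month, and no other count changed by over 1.5 times. The numbers mark no shared litter or batch in the labels. Same-numbered WT and mutant samples had a mean correlation of deviations of 0.226 at E14.5, with 4 of 6 best with their own number and the lowest at 0.0153, and of 0.0186, 0.046 and −0.034 at 1, 6 and 12 months. Over the Zfp genes alone it was 0.425 at E14.5 and 0.231 at 6 months, each with 5 of 6 pairs over 0.1, and −0.0601 and −0.0199 at 1 and 12 months. At no age was every pair over 0.1.

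With each sample left out in turn, calls between genotypes ranged from 0 to 0 at E14.5, 0 to 1 at 1 month, 0 to 1 at 6 months and 0 to 3 at 12 months. From E14.5 to 1 month they ranged from 195 to 200 in WT (73 to 77 at a difference of 1 or more) and from 194 to 203 in mutants (75 to 79). From 1 to 6 months they were 51 to 62 and 55 to 72, and from 6 to 12 months 0 to 0 and 3 to 15. The change of genotype effect gave 0 to 7 calls against E14.5, 0 to 7 against 1 month and 0 to 3 against 6 months. The upper ends came from leaving out single WT samples, namely replicate 2 of 6 months (1 call there), replicate 3 of 12 months (3 calls there, 7 against 1 month, 3 against 6 months) and replicate 6 of E14.5 (7 calls against E14.5), while replicate 4 of 12 months gave 5 against 1 month, and replicate 1 of E14.5 and replicates 3 and 4 of 12 months each gave 2 against E14.5. Shares of all genes called are not given for these fits, so the counts cannot be set beside all genes. The WT median from E14.5 to 1 month was −0.67 to −0.64. Sampling 6 mice a group, with a median standard error of 0.06 to 0.07 for the genotype difference of a Zfp gene, limits what can be called.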

Other observations

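Other zinc finger families with a mean of at least 8 were also mostly lower in WT mice of 1 month than in embryos. Among all genes tested, 42.3% were called lower and 43.4% higher in that comparison. Of 16 Zscan and Zkscan genes, which carry a SCAN domain for pairing with each other, 14 were lower and 2 higher, with a median of −0.88. Of 27 Zbtb genes, whose BTB domain binds corepressors, 19 were lower and 4 higher, with a median of −0.45. Of the numbered Zfp genes with a mean under 8 that were tested, 119 in all, 87 were lower and 15 higher, with a median of −0.59. From 1 to 6 months in WT, 31 were higher and 2 lower, where 12.3% of all genes tested were called in each direction.

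Replicate 1 of both genotypes was the lowest E14.5 sample of its group in Zfp106 (12.21 in WT and 12.10 in mutants), in Zfp866 (10.77 and 10.64) and in Zfp521 (11.15 and 10.98).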
